A study of Mus musculus with 9 samples.

Results

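The liver X receptors (LXRs) Nr1h2 and Nr1h3 are nuclear receptors that bind oxysterols, oxidised forms of cholesterol, and switch on genes that carry cholesterol out of the cell. In macrophages they are known for driving cholesterol efflux and for dampening inflammatory genes. Oxysterols are made by enzymes such as Ch25h and Cyp27a1, and some are signals between immune cells in their own right. The 10 genes described here belong to this system: the receptors, the transporters Abca1, Abcg1 and Abca9, the lipid carrier Apoe, the LXR targets Mylip and Lpcat3, and the enzymes Ch25h and Cyp27a1. They were found by taking every probe set that the platform annotation gave to 1 of these symbols alone. This gave 14 probe sets for 9 of the 10 genes, out of 45037 probe sets and 18193 genes. Nr1h2 had no probe set under this rule and was not analysed here.

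The cells were BALB/c bone marrow-derived macrophages, from mice of 8 to 10 weeks of age, grown in macrophage colony-stimulating factor for 7 days and kept overnight in 1% serum. The 9 arrays fell into 3 groups of 3. Untreated cells had no named addition. In the TNC + vehicle group, 6 h of tenascin C (TNC), a matrix glycoprotein added as recombinant protein at 2 µg/ml, followed 1 h with 0.1% DMSO. In the TNC + TLR4i group the hour before TNC was spent in 3 µM TAK-242, which inhibits Toll-like receptor 4 (TLR4). No group of vehicle alone or inhibitor alone was labelled, so TNC and vehicle cannot be told apart in the first comparison, nor TNC and inhibitor where TNC + TLR4i is set against untreated cells.

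The values are log2 signals after robust multiarray averaging (RMA), a scale on which a difference of 1 is a doubling. RMA lifts dim probe sets towards a floor, so folds of weak genes are understated. The arrays had medians of 6.72 to 6.74. The 8 measured macrophage markers had mean signals of 11.47 to 14.56, and the median of these markers lay between 12.84 and 12.95 on every array. The fibroblast markers were also bright in places, with a mean up to 13.24 and a list median of 8.86 to 9.82, which overlapped between the groups. The endothelial markers had a list median of 7.45 in TNC + vehicle replicate 1 and of 6.31 to 6.58 on the other 8 arrays. Of the 9 endothelial markers 8 were higher in that replicate than in the rest of its group, as were 6 of 7 fibroblast markers (list median 9.82 against 9.28 and 9.43). Of the endothelial markers 1, Kdr, was called higher with TNC (1.63 on the log2 scale), where 3.74% of all genes were called higher. The list medians of T cell, B cell, neutrophil, dendritic cell and adipocyte markers stayed between 6.07 and 7.24. The excess of 3' over 5' signal of a control is a check of RNA integrity, and a larger excess goes with less intact RNA. For the actin control it was 0.29 to 0.32 without treatment, 0.20 to 0.22 after TNC + vehicle and 0.30 to 0.37 after TNC + TLR4i. For the GAPDH control the 3' minus 5' difference was -0.35 to -0.33, -0.33 to -0.30 and -0.32 to -0.26 in the same order, so TNC + vehicle was not the lowest group there. The part of these markers and of RNA integrity in the results was not tested. In such bulk samples fewer cells of a type and less RNA per cell cannot be told apart.

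The first comparison asked how TNC changed the LXR system. Calls rested on the brightest probe set of a gene and needed both a limma adjusted p below 0.05 and a 1.5-fold change or more. With TNC, the receptor gene Nr1h3 and the oxysterol enzyme Ch25h rose, by 2.05-fold and 3.53-fold, while the enzyme Cyp27a1 and the transporter Abca9 fell, by 2.44-fold and 2.83-fold. The main efflux transporters, the lipid carrier and the other LXR targets of the list were not called. Of the 9 measured genes 2 were called higher, 2 lower and 5 neither, where 3.74% of all genes were called higher and 4.05% lower. The median log2 difference was -0.13 over the 9 genes and 0.01 over all genes.

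The other comparisons asked what the inhibitor took away and what it left. With TLR4i, Nr1h3 and Ch25h were 2.01-fold and 3.56-fold lower than with TNC alone, and Cyp27a1 and Abca9 were 2.38-fold and 2.24-fold higher. Mylip was called as well, at 1.5-fold higher. This made 3 of 9 genes higher and 2 lower, where 4.25% of all genes were called higher and 4.05% lower. The median was 0.32 over the 9 genes and 0.00 over all genes. Between TNC + TLR4i and untreated cells 0 of 9 genes were called in either direction by limma, where 0.0605% of all genes were called higher and 0.198% lower. Without adjustment 4 had a p under 0.05, with Mylip, Lpcat3 and Abcg1 higher and Abca9 lower, where 4.83% of all genes were higher and 4.63% lower at that p. Each pair of these comparisons shares the 3 arrays of a group, so their values for a gene are not independent.

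**Figure D1:**
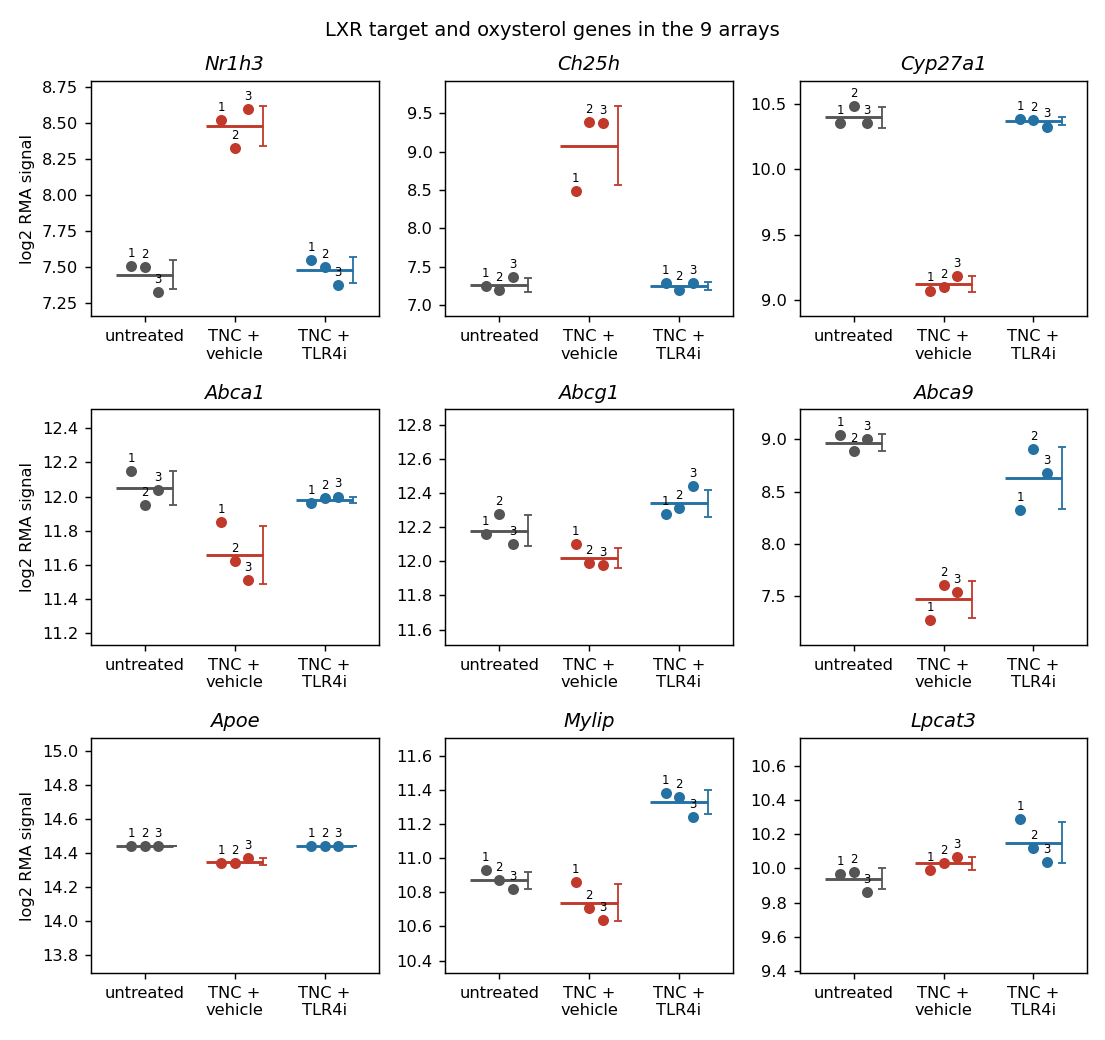
Log2 RMA signal (vertical axis, a separate range for each gene) of the 9 measured genes in each array, with untreated in grey, TNC + vehicle in red and TNC + TLR4i in blue. Points are arrays with their replicate numbers, wide lines are group means and bars are SD (n = 3). Nr1h3 and Ch25h were higher and Cyp27a1 and Abca9 lower in all TNC + vehicle arrays, and Mylip was highest in the TNC + TLR4i arrays.

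Nr1h3, which encodes LXRα and lies at chr2:91184061-91202829 (GRCm38.p6), gave a signal of 7.51, 7.50 and 7.33 in untreated replicates 1 to 3. It was 8.52, 8.33 and 8.60 with TNC + vehicle and 7.55, 7.50 and 7.38 with TNC + TLR4i. The TNC + vehicle arrays lay above all others, and the remaining groups overlapped. The log2 difference was 1.04 ± 0.08 (SE) for TNC + vehicle against untreated, with a limma adjusted p of 3.09e-06. It was -1.01 ± 0.08 for TNC + TLR4i against TNC + vehicle (limma adjusted p = 2.51e-06) and 0.03 for TNC + TLR4i against untreated, with a 95% interval of -0.13 to 0.19. Without TNC + vehicle replicate 1, the first 2 of these differences were 1.02 and -0.99.

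LXRs bind DNA together with a retinoid X receptor and recruit coactivators or corepressors. Of 15 measured partners and coregulators, 3 fell with TNC and 0 rose, where 4.05% of all genes were called lower and 3.74% higher. By an unadjusted p under 0.05 alone 9 were lower and 1 higher, where 20.8% of all genes were lower and 17.8% higher. The retinoid X receptor Rxra fell by 0.59 on the log2 scale, from 8.41 ± 0.12 (SD, n = 3) to 7.82 ± 0.05. The coactivator Ncoa3 fell by 0.74 and Tbl1xr1, a subunit of the corepressor complex, by 0.87. In TNC + TLR4i against TNC + vehicle 3 of 15 were called higher and 0 lower. Of all genes 4.25% were called higher and 4.05% lower there. These 3 were again Rxra, Ncoa3 and Tbl1xr1 (0.67, 0.70 and 0.93). Between TNC + TLR4i and untreated cells 0 of 15 differed at an unadjusted p under 0.05 in limma. Of all genes 4.83% were higher and 4.63% lower at that p. Rxrb and the coactivator Ncoa2 differed by -0.41 each with TNC, which passed the limma test (adjusted p = 0.000995 and 0.00114) but not the fold threshold.

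Ch25h hydroxylates cholesterol to an oxysterol and is known as an interferon-induced, antiviral enzyme. The gene lies at chr19:34473783-34475148. Its signal was 7.24, 7.19 and 7.36 in untreated arrays, 8.48, 9.39 and 9.38 with TNC + vehicle, and 7.28, 7.20 and 7.28 with TNC + TLR4i. Every TNC + vehicle array was above the other 6, and replicate 1, the array with the raised endothelial markers, was the lowest of the 3. The log2 difference with TNC was 1.82 ± 0.19 (limma adjusted p = 2.49e-05) and 2.12 without that array. Against TNC alone, the TNC + TLR4i arrays differed by -1.83 ± 0.19 (limma adjusted p = 1.5e-05), or by -2.13 without that array. TNC + TLR4i and untreated cells differed by -0.01, with a 95% interval of -0.16 to 0.14.

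Cyp27a1, at chr1:74713148-74737897, encodes the mitochondrial sterol hydroxylase, whose product is an LXR ligand in macrophages. It was at 10.36, 10.49 and 10.36 in untreated arrays and at 9.07, 9.10 and 9.18 with TNC + vehicle, a difference of -1.29 ± 0.07 (limma adjusted p = 1.23e-07). With TNC + TLR4i it was at 10.39, 10.38 and 10.33, which overlapped the untreated arrays and was 1.25 ± 0.07 above TNC alone (limma adjusted p = 5.02e-08). Without TNC + vehicle replicate 1 the differences were -1.27 and 1.23. The 2 oxysterol enzymes thus moved in opposite directions with TNC, each by more than the spread within any group. A second Cyp27a1 probe set lay at 5.72 to 5.86 on all 9 arrays, near the lowest value in the table (5.44), and showed no difference (-0.04, limma adjusted p = 0.74). Averaging both probe sets took the TNC difference to -0.66, which was still called.

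Of the genes of oxysterol turnover and sensing, 12 were measured. Several of these had untreated means of 6.00 to 6.46, near the floor, where a fall can hardly show. With TNC 1 was called higher and 1 lower, where 3.74% of all genes were called higher and 4.05% lower. The largest difference among the 12 was in Gpr183, the receptor through which a product of Ch25h guides immune cells. Gpr183 gave 9.07, 9.06 and 8.94 in untreated, 7.45, 7.48 and 7.31 in TNC + vehicle and 9.01, 8.96 and 8.86 in TNC + TLR4i arrays. It therefore fell by 1.61 with TNC (limma adjusted p = 3.58e-08), while Ch25h rose. Insig1, the oxysterol-binding anchor that holds back sterol synthesis, rose by 0.93. Between TNC + TLR4i and untreated cells the differences were -0.08 for Gpr183 and 0.02 for Insig1, and neither passed the test. Hsd3b7, which acts on oxysterols after their 7-hydroxylation, differed by -0.42 with TNC (limma adjusted p = 0.00201), short of the fold threshold. Between TNC + TLR4i and untreated cells 0 of the 12 were called by limma (0.0605% of all genes higher, 0.198% lower). At an unadjusted p under 0.05, 1 was higher and 0 lower, where 4.83% of all genes were higher and 4.63% lower.

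**Figure D2:**
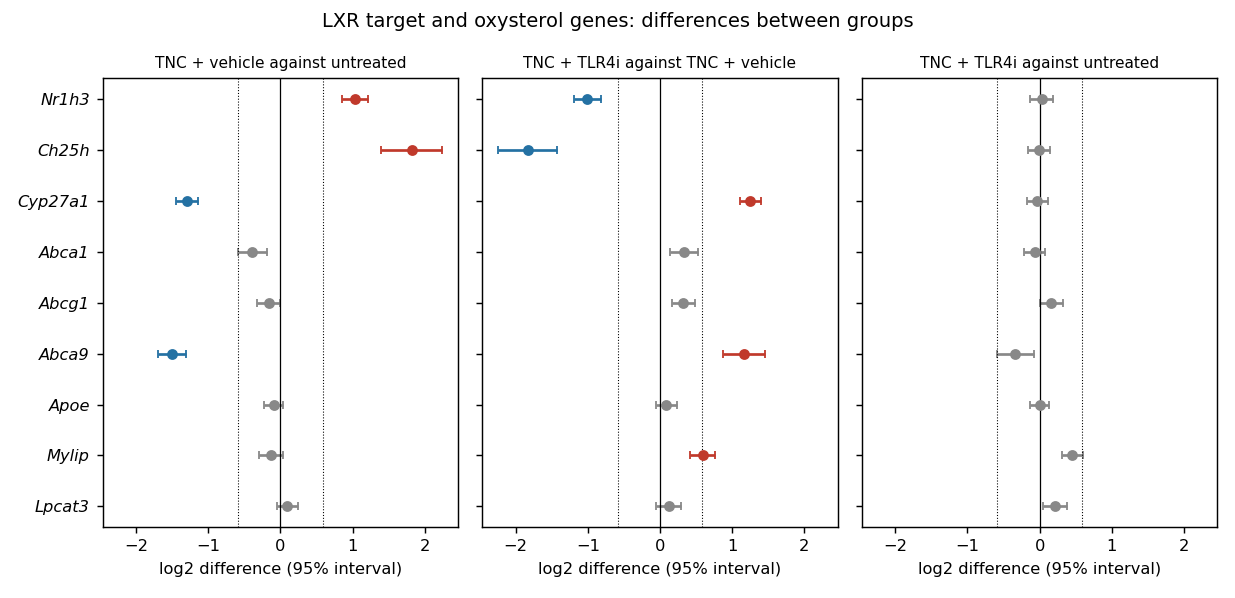
Log2 difference (horizontal axis) of each gene in the 3 comparisons, with 95% intervals from limma. Red points were called higher, blue points lower and grey points neither; dotted lines mark a 1.5-fold change. In the comparison of TNC + TLR4i with untreated cells every point lies inside the dotted lines, with Mylip at 0.45 and Abca9 at -0.34.

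Neither main efflux transporter was called. Abca1, the transporter that loads cholesterol onto lipid-poor apolipoprotein, lies at chr4:53030789-53159988. On its brightest probe set it was at 12.15, 11.95 and 12.04 in untreated, 11.85, 11.62 and 11.51 in TNC + vehicle and 11.96, 11.99 and 12.00 in TNC + TLR4i arrays. The TNC + vehicle arrays were below both other groups. The difference with TNC was -0.39 ± 0.09 (95% interval -0.59 to -0.19, limma adjusted p = 0.00854), a 1.31-fold change that passed the test but not the fold threshold. TLR4i against TNC alone gave 0.33 ± 0.09 (limma adjusted p = 0.0156). This no longer passed after cyclic loess (0.22, limma adjusted p = 0.0825), without TNC + TLR4i replicate 3 (0.32, 0.0536) or without TNC + vehicle replicate 3 (0.25, 0.0679). The other 2 Abca1 probe sets gave -0.22 and -0.04 with TNC and did not pass (limma adjusted p = 0.0772 and 0.752), so the probe sets of this gene disagreed in size.

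Abcg1, which moves cholesterol towards high-density lipoprotein, lies at chr17:31057694-31117984. It was at 12.16, 12.28 and 12.10 in untreated, 12.10, 11.99 and 11.98 in TNC + vehicle and 12.28, 12.31 and 12.44 in TNC + TLR4i arrays. The TNC + vehicle arrays lay just below the untreated arrays and the TNC + TLR4i arrays just above them, with no overlap before rounding. The TNC + TLR4i arrays were above the TNC + vehicle arrays by 0.32 ± 0.07 (limma adjusted p = 0.00626), or by 0.21 after cyclic loess (limma adjusted p = 0.0505). The difference with TNC was -0.16 (95% interval -0.32 to 0.00, limma adjusted p = 0.153), or -0.06 after cyclic loess (limma adjusted p = 0.61). The second probe set gave -0.31 with TNC (limma adjusted p = 0.0048) and 0.44 with TLR4i against TNC alone (limma adjusted p = 0.000591), both under 1.5-fold.

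Abca9, at chr11:110100749-110168274, encodes an ABC transporter whose expression in macrophages is known to respond to cholesterol. It was at 9.04, 8.89 and 9.0 in untreated arrays and at 7.27, 7.61 and 7.54 with TNC + vehicle. The difference of -1.5 ± 0.09 was the largest fall among the 9 genes (limma adjusted p = 2.63e-07). With TNC + TLR4i it was at 8.32, 8.91 and 8.68, above all TNC + vehicle arrays by a mean of 1.16 ± 0.13 (limma adjusted p = 3.81e-05). These arrays spread more than the untreated ones (SD 0.30 against 0.08), overlapped them and differed from them by -0.34 (95% interval -0.59 to -0.08, limma adjusted p = 0.409). Without TNC + TLR4i replicate 1 that difference was -0.18. A second, dim probe set moved the same way by less, -0.24 with TNC (limma adjusted p = 0.0209). Of 15 other measured transporters of the ABCA and ABCG subfamilies, 0 were called in limma with TNC (3.74% of all genes higher, 4.05% lower). By unadjusted p alone 1 was higher and 2 were lower (17.8% and 20.8% of all genes). The nearest were Abcg2 (-0.45, limma adjusted p = 0.00146) and Abca3 (-0.21, limma adjusted p = 0.0347), and the group means of these 15 genes in untreated cells ran from 5.77 to 9.92. Most of these means lay under 6.72, the limit used for dim probe sets, where a fall can hardly show.

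Apoe, the apolipoprotein that accepts cholesterol and that macrophages secrete, lies at chr7:19696244-19701310. Its single probe set ranked 4 or 5 in brightness among all probe sets on every array. In 6 arrays, all untreated and all TNC + TLR4i, its value was the same to 6 decimals, 14.44, and in TNC + vehicle it was 14.34, 14.34 and 14.37. The highest value in the table was 14.69. Since 6 arrays shared 1 value, the spread of this probe set is not that of separate measurements. The difference of -0.09 with TNC did not pass (limma adjusted p = 0.345) and turned to 0.03 after cyclic loess. So near the top of the scale a rise or a small fall can hardly show, so the missing call does not mean that Apoe was unchanged.

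Mylip, at chr13:45389742-45411940, encodes an E3 ligase that LXR induces and that marks lipoprotein receptors for degradation. It was at 10.93, 10.87 and 10.82 in untreated, 10.86, 10.71 and 10.64 in TNC + vehicle and 11.38, 11.36 and 11.24 in TNC + TLR4i arrays. The untreated and TNC + vehicle arrays overlapped (-0.13, limma adjusted p = 0.239) and all TNC + TLR4i arrays were above both. The TNC + TLR4i arrays were 0.59 ± 0.08 above TNC + vehicle (limma adjusted p = 0.000112), at the edge of the fold threshold. This call was lost on fold without TNC + TLR4i replicate 1 (0.56) or 2 (0.57), without TNC + vehicle replicate 2 (0.58) or 3 (0.54), and after cyclic loess (0.49). Against untreated cells they were 0.45 ± 0.07 higher (95% interval 0.31 to 0.60, limma adjusted p = 0.00819), which is 1.37-fold and was not called. Without TNC + TLR4i replicate 1 this difference was 0.43 (limma adjusted p = 0.052). Of all genes, 0.803% had an adjusted p under 0.05 in that comparison, and Mylip was the only one of the 9 to do so.

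Lpcat3, at chr6:124663094-124704716, encodes an LXR-induced acyltransferase that puts polyunsaturated fatty acids into membrane phospholipids. It was at 9.97, 9.98 and 9.86 in untreated, 9.99, 10.03 and 10.07 in TNC + vehicle and 10.29, 10.12 and 10.04 in TNC + TLR4i arrays. The TNC + vehicle arrays all lay above the untreated ones by a little, and overlapped the TNC + TLR4i arrays. Its differences of 0.09, 0.12 and 0.21 in the 3 comparisons did not pass (limma adjusted p = 0.386, 0.317 and 0.416). Among 6 other lysophospholipid acyltransferases measured, Lpcat2, the enzyme of platelet-activating factor synthesis, rose by 1.14 with TNC and Mboat1 fell by 0.98. Of these 6 genes 1 was called higher and 1 lower, where 3.74% of all genes were called higher and 4.05% lower.

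Other LXR targets were taken from a list of 21 genes, of which 20 were measured. With TNC 4 of them passed both thresholds upwards and 0 downwards (3.74% and 4.05% of all genes). By unadjusted p alone 8 were higher and 6 lower (17.8% and 20.8% of all genes). The transglutaminase Tgm2 rose by 1.6, the fatty acid synthase Fasn by 0.96 and the desaturases Fads2 and Scd2 by 0.76 and 0.67. Srebf1, the LXR-induced regulator of fatty acid synthesis, differed by 0.40 (limma adjusted p = 0.00147), short of 1.5-fold. The list median was 0.05 with TNC. In TNC + TLR4i against TNC + vehicle 2 of 20 were called higher and 2 lower (4.25% and 4.05% of all genes). The list median there was -0.03. Against untreated cells 0 of 20 were called by limma, where 0.0605% of all genes were called higher and 0.198% lower. By unadjusted p alone 6 were higher and 0 lower, where 4.83% of all genes were higher and 4.63% lower. The largest of these values were those of Fads2 (0.34, limma adjusted p = 0.0726) and Tgm2 (0.30, limma adjusted p = 0.17).

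Genes of cholesterol storage and traffic had the lowest list median with TNC, -0.46 over 10 measured genes, against 0.01 over all genes. Of these 10, 4 were called lower and 2 higher, where 4.05% of all genes were called lower and 3.74% higher. Nceh1, which frees cholesterol from its stored esters, fell by 1.21, the sterol carrier Gramd1b by 1.08 and Npc1, which exports cholesterol from the lysosome, by 0.84. Stard3 and Stard4, which carry cholesterol between membranes, each rose by 0.76. With TLR4i against TNC alone 5 were higher and 2 lower (median 0.64), where 4.25% of all genes were called higher and 4.05% lower. Lipa, the lysosomal acid lipase, was at 12.57, 12.62 and 12.57 in untreated, 12.35, 11.90 and 12.03 in TNC + vehicle and 12.96, 13.04 and 13.04 in TNC + TLR4i arrays. Its TNC + TLR4i arrays were above both other groups, 0.42 over untreated cells (limma adjusted p = 0.00837), as with Mylip. The lipid scavenger receptor Cd36 had the same order, with 11.53, 11.58 and 11.57, then 11.08, 11.42 and 11.49, then 12.06, 12.06 and 12.14, and was 0.53 over untreated cells (limma adjusted p = 0.0028). Neither reached 1.5-fold there. Among 6 measured genes of lipoprotein uptake, the scavenger receptor Msr1 rose by 2.09 with TNC and the endocytic receptor Lrp1 fell by 0.72. Of these 6 genes 1 was called higher and 1 lower, where 3.74% of all genes were called higher and 4.05% lower.

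**Figure D3:**
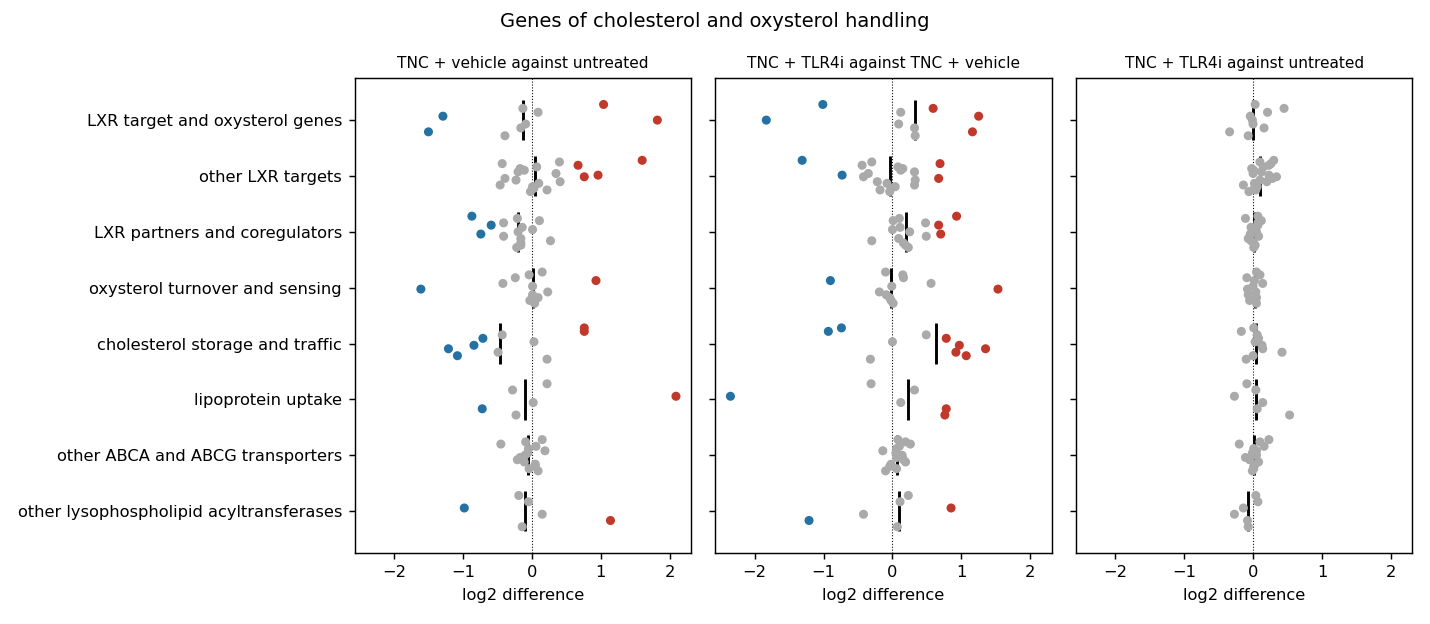
Log2 difference (horizontal axis) of each gene in 3 comparisons, by gene list, with red points called higher, blue lower and grey neither, and a black bar at the list median. With TNC the storage and traffic list had a median of -0.46. With TNC + TLR4i against untreated cells no gene of these lists was called (0.0605% of all genes higher, 0.198% lower).

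Across the 9 arrays the genes whose pattern was most like that of Ch25h were Cd86 (Pearson r = 0.996), Klra2 (0.993), Ccdc88b (0.993) and 9530082P21Rik (0.993). For Abca1 they were Slc45a4 (0.981), Bbs2 (0.969), Map4k5 (0.969) and Selenoh (0.968). For Abcg1 they were Asrgl1 (0.974), Snhg1 (0.971), Gm30058 (0.961) and Sfxn1 (0.961). Among the 9 genes themselves, Nr1h3 and Ch25h correlated at 0.93, each with Cyp27a1 at -0.97 and -0.95, while Abca1 and Abcg1 correlated at 0.66. These are descriptions over arrays that fall into 3 groups, so that any genes that differ between the groups correlate. Tlr4 itself, the target of the inhibitor, was at 11.31, 11.34 and 11.22 in untreated, 11.04, 10.85 and 10.88 in TNC + vehicle and 11.26, 11.35 and 11.31 in TNC + TLR4i arrays.

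The 250 bases before the start of a gene were read from RefSeq windows (GRCm38.p6), which were given for 9 of the 10 genes; Abcg1 had none. LXRs bind a direct repeat of the letters AGGTCA with 4 bases between, known as DR4. The letters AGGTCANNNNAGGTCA were searched on both strands with up to 3 mismatches, and 18.5% of all 32851 windows held such a match. Among the 9 genes Abca1 alone did, at positions -67 to -52 from the start, on the opposite strand and with 3 mismatches. AGGTCA itself without mismatch, held by 14.0% of windows, was in none of the 9. The other letters searched were GGGNNTTTCC for NF-kB (1.41% of windows), GAAANNGAAA for the interferon-stimulated element (2.98%), TGANTCA for AP-1 (6.75%) and TCACNCCAC for SREBP (1.05%), and none of the 9 genes held one. TATAAA (12.4%) was found in Abca1, Mylip, Ch25h and, on both strands and overlapping, at 1 of the 3 starts of Apoe. The sequences of Abca1, which holds the DR4 letters, and of Ch25h and Cyp27a1, the enzymes that moved in opposite directions, are shown 5′ to 3′ on the gene's strand, with matches in capitals (in Abca1 the DR4 letters come first and TATAAA second; in Ch25h TATAAA).
Abca1 (chr4:53159896-53160145, minus strand): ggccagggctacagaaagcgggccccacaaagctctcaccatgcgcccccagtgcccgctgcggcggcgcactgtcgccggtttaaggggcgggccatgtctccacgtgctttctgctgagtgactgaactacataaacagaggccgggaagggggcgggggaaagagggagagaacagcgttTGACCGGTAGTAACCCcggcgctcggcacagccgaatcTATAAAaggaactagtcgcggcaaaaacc
Ch25h (chr19:34475149-34475398, minus strand): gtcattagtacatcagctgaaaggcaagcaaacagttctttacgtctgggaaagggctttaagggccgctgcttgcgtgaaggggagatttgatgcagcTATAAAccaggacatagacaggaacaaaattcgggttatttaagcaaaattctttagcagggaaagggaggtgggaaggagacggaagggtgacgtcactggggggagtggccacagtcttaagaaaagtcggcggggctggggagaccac
Cyp27a1 (chr1:74713285-74713534, plus strand): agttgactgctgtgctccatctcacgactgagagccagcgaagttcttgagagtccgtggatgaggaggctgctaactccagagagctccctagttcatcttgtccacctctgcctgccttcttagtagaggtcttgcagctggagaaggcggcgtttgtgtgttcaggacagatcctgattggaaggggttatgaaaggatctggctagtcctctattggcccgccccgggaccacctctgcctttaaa
The G and C content of these windows was 61.6%, 50.4% and 54.0%, against a median of 52.4% over all windows. A match describes letters only, and no match says nothing of a factor that binds elsewhere.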

How the data were processed

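RNA of the 9 cultures was measured on Affymetrix GeneChip mouse genome arrays, 3 per group by the treatment labels. The authors normalized the scans by robust multiarray averaging in Chipster, and the deposited table holds log2 signals from 5.44 to 14.69. This method sets the probe signals of all arrays to 1 distribution, which hides changes of total RNA. The number of arrays limits the precision. The labels call the arrays biological replicates without saying that they came from separate mice, so p-values measure the spread between these arrays.

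Of 45101 probe sets, 64 array controls were left out. The platform annotation gave 34945 probe sets 1 gene, 932 several and 9160 none, and only the first were named. Where a gene had several, the one brightest on average over the 9 arrays stood for it. Groups were compared with limma 3.58.1 (R 4.3.3; lmFit, eBayes) on the 6 arrays of each pair, two-sided, with Benjamini-Hochberg adjustment over all probe sets tested, which follows the study's empirical Bayes test. Calls needed an adjusted p below 0.05 and 1.5-fold. The limma fit of TNC + vehicle against untreated was tested on simulated data, and the other comparisons and the alternatives were not. The genes and lists were chosen with earlier results of these data known. Beside the 9 genes, the text names of each list up to 4 genes by size of change with TNC, up to 2 by size in TNC + TLR4i against untreated, the 4 genes most correlated with Ch25h, Abca1 and Abcg1, and Tlr4. Rxrb, Stard4 and Srebf1 were chosen after their values were seen. Alternatives covered the arrays fitted, a replicate block, dim probe sets (mean under 6.72) left out, other scalings, variance settings, averaged probe sets, thresholds and each array left out.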

Additional observations from a re-analysis of the deposited data

How the results depend on the processing

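The calls of Nr1h3, Ch25h, Cyp27a1 and Abca9 in both TNC comparisons kept their direction and stayed called under every alternative run, leave-one-out fits included. Averaging probe sets lowered the size (Cyp27a1 -0.66 and 0.63, Abca9 -0.87 and 0.66, still called). Cyclic loess moved the TNC differences of the uncalled genes upwards, to -0.3 for Abca1, -0.06 for Abcg1, -0.05 for Mylip, 0.03 for Apoe and 0.16 for Lpcat3. With no minimum fold, 3 genes in place of 2 were called lower with TNC (Abca1 was added), 5 genes in place of 3 were called higher in TNC + TLR4i against TNC + vehicle, and 1 in place of 0 in TNC + TLR4i against untreated (Mylip). The Mylip call against TNC + vehicle was lost with cyclic loess (0.49), a 2-fold minimum, limma's treat and in 4 of 6 leave-one-out fits (0.54 to 0.65 over the 6). Values near 0 changed sign, none of them called: Apoe with cyclic loess (0.03 with TNC and -0.03 with TLR4i against TNC alone), and, in TNC + TLR4i against untreated, Nr1h3 (-0.03 to 0.08 over leave-one-out fits), Ch25h (-0.05 to 0.04) and Cyp27a1 (-0.06 to 0.01). Deviations of same-numbered arrays correlated at -0.10 to 0.14 and those of differently numbered arrays at -0.116 to 0.102. These values showed no pairing by replicate number but cannot exclude it, and the labels do not state it. The replicate block changed no call of a member (2 higher and 2 lower with TNC, 3 and 2 with TLR4i against TNC alone, 0 and 0 against untreated).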
